A study of Mus musculus with 6 samples.

Results

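Melanomas of mice carrying LysM-Cre and floxed Nr3c1 were compared after anti-PD-1 or isotype control antibody, in single immune cells read by CITE-seq, which counts messenger RNA and antibody-borne DNA tags in the same cell. Cells belonged to the comparison when their leading hashtag, an antibody tag marking the mouse of origin, was listed by the submitters for a LysM-Cre animal. That hashtag needed at least 10 counts and at least 70% of the hashtag counts of the barcode, and the barcode needed at least 500 gene counts and at most 10% from mitochondrial genes. The rule gave 9298 of the 20407 assigned cells, 2746 from 4 anti-PD-1 mice and 6552 from 4 isotype mice. The other 11109 cells came from floxed mice without Cre, which serve here to ask whether a response differed between the genotypes.

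PD-1 is an inhibitory receptor on activated T cells, and antibodies against it are used in melanoma to release T cells from that inhibition. Nr3c1 encodes the glucocorticoid receptor, a ligand-activated transcription factor that represses many inflammatory genes in myeloid cells. LysM-Cre is a Cre recombinase expressed from the Lyz2 promoter, which is active in macrophages, monocytes and neutrophils, so that a floxed gene is deleted in those cells and kept in lymphocytes.

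All mice, controls included, were female, 8 weeks old, on a C57BL/6 background (C57BL/6JRccHsd among the sample characteristics, C57BL/6J in the growth protocol) and homozygous for the floxed Nr3c1 allele, and the LysM-Cre mice were heterozygous for the Cre besides. Each received 250000 YUMM1.7 cells, a mouse melanoma line, under the skin. Antibody at 12.5 mg/kg was given 2 times a week for 3 weeks from about day 7, with tumour collection on day 28. For each of 2 pools, E5 and E6, cells of 8 mice (2 per condition) were hashtagged and mixed before surface staining, sorting for CD45 and loading of 25000 cells per pool. Cell numbers per mouse therefore depend on the mixing as well as on the tumour. The antibody table does not number mice of one condition. Mice 1 and 2 are therefore the E5 mice and mice 3 and 4 the E6 mice, by hashtag, and "anti-PD-1 mice" and "isotype mice" below are LysM-Cre mice unless called floxed.

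The tags are printed because each mouse and each surface protein in the results is known only through its tag. Isotype mice were read through 2 hashtags in both pools, and anti-PD-1 mice through the other 2, as the submitters' antibody table lists them.
Hashtag 10: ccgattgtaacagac
Hashtag 11: gcttaccgaattaac
Hashtag 14: ctttcgccaactctg
Hashtag 15: ccctctctggattct
The surface proteins that the results turn on were counted through these tags, of which TIM3 and CD226 differed in CD8 T cells, CD8a differed in monocytes, CD279 is PD-1 itself and CD278 is the costimulatory receptor ICOS.
TIM3: attggcactcagatg
CD226: acgcagtatttccga
CD8a: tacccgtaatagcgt
CD279: gaaagtcaaagcact
CD278: actgccatatcccta

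Depth per LysM-Cre mouse ran from 5666867 to 32065490 gene counts over 532 to 2873 cells, with a median of 6634.5 to 11638 counts per cell. The pools shared 805 cell barcodes, which covered 154 of the 9298 cells. Clusters named from marker genes gave 13 classes, written here by the cell they resemble. Of lymphoid cells there were CD8 T-like (1263), NK-like (545), regulatory T-like (386), B-like (62) and CD4 T-like cells (278). Of myeloid cells there were monocyte-like (2788 cells, 29.98%), macrophage-like (1676), neutrophil-like (1059) and mast or basophil-like cells (130), with dendritic cells that were cDC2-like (258), pDC-like (43) or mature (88). The remaining class was 480 collagen-expressing cells. A further 242 cells stayed unnamed. The collagen-expressing cells carried fibroblast genes and little Ptprc, the gene for CD45 (58.9 to 176 CPM, the counts of a gene scaled to the same total of gene counts in every mouse and class). They also held 52.5 to 86.4 CPM of 4 Y-linked genes, against 0 to 1.46 CPM in the other 5 classes tested for genes, although the mice were female. Whether these cells came from the host or from the injected YUMM1.7 line was not tested, so the class is not read as host stroma.

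Of the 8 LysM-Cre mice, 2 stood apart in ways that touch the comparison. In monocytes, Nr3c1 was 28.1, 22.6, 38.7 and 40.2 CPM in anti-PD-1 mice 1 to 4 and 52.2, 36.1, 42.4 and 60.9 CPM in isotype mice 1 to 4, whereas floxed mice ranged from 55.1 to 69.7 CPM. Lyz2, the lysozyme gene whose locus drives the Cre, was 4830, 4228, 4198 and 3765 CPM in the anti-PD-1 mice and 5091, 4350, 3231 and 10852 CPM in the isotype mice, against 6542 to 10556 CPM in floxed mice. The mouse labelled LysM-Cre isotype 4 thus lay in the floxed range for Nr3c1 and above it for Lyz2. In macrophages its Nr3c1 level was 81.0 CPM, against 28.0 to 41.8 CPM in the other isotype mice and 19.4 to 32.0 CPM in the anti-PD-1 mice. The mouse labelled LysM-Cre isotype 1 had 130 CPM of Xist in CD8 T cells, the transcript of the inactive X chromosome in female cells, where the other 7 had 980 to 1520 CPM, and its Y-linked genes summed to 0.876 CPM there. Calls, and medians of gene lists that moved by over 1.5 times without isotype mouse 4, are given with and without it.

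**Figure D1:**
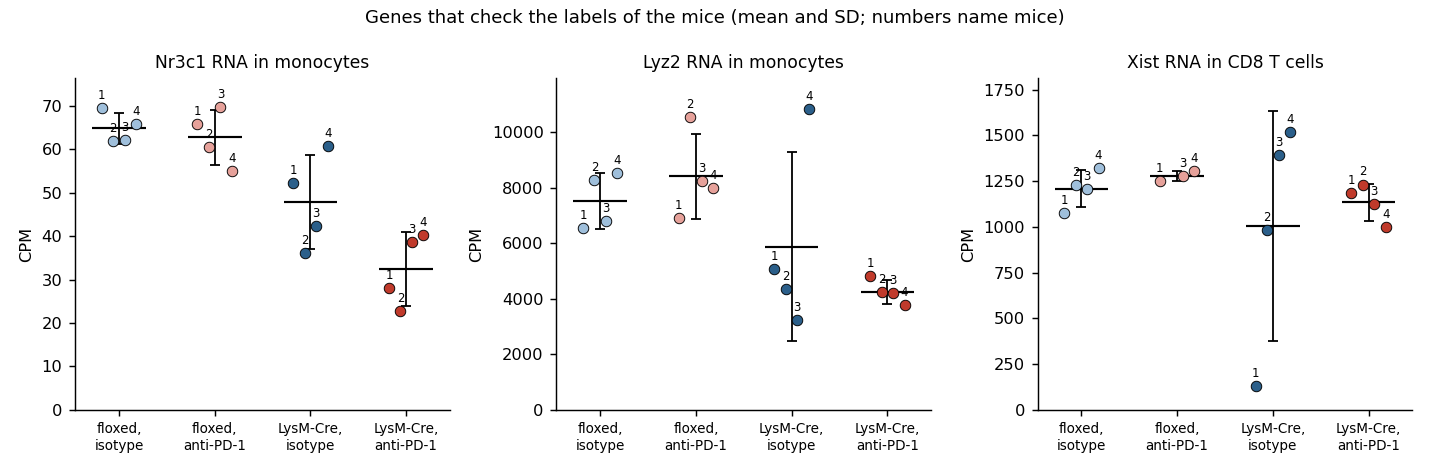
Each numbered point is 1 mouse, placed by the CPM (y axis) of Nr3c1 and Lyz2 in monocytes and of Xist in CD8 T cells, for the 4 combinations of genotype and antibody, with the mean and SD. LysM-Cre isotype mouse 4 sits at 10852 CPM of Lyz2 beside the highest floxed mice, and LysM-Cre isotype mouse 1 at 130 CPM of Xist below all others.

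Tumours under anti-PD-1 yielded 532, 603, 635 and 976 assigned cells and those under isotype 752, 2873, 958 and 1969, so that mouse 4 of the anti-PD-1 group lay within the isotype range. The means were 686.5 ± 198 and 1638 ± 980 cells (SD, n = 4 each), a difference that missed the threshold in an exact two-sided permutation test (p = 0.0857, or 0.111 with mice relabelled within pools). The difference of -951.5 cells was -539.8 without isotype mouse 2. With 4 against 4 mice the smallest p is 0.0286, and 0.0556 within pools.

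Among the classes, cDC2-like cells, the dendritic cells that present antigen to CD4 T cells, were the least alike between the groups. They made up 2.44, 0.498, 1.42 and 0.512% of the cells of anti-PD-1 mice and 5.72, 2.54, 2.51 and 4.47% of those of isotype mice. All 4 anti-PD-1 mice lay below all 4 isotype mice, the only 1 of 13 classes (7.69%) without overlap. The means were 1.22 ± 0.924% and 3.81 ± 1.57% (exact permutation p = 0.0286, adjusted 0.371 over 13 classes by Benjamini-Hochberg). Without isotype mouse 4 the groups still did not overlap, and the exact permutation p of 0.0571 was the smallest that the remaining mice allow. In floxed mice the share was 3.39 ± 1.78% under anti-PD-1 and 3.72 ± 1.72% under isotype.

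No class passed the adjusted test of shares. With 4 against 4 mice, a single class could not pass it even where the groups did not overlap. CD8 T cells were 16.2, 8.29, 6.77 and 9.02% under anti-PD-1 and 24.1, 11.9, 21.9 and 13.3% under isotype, and overlapped through the first anti-PD-1 mouse (means 10.1 ± 4.18% and 17.8 ± 6.08%, exact permutation p = 0.0857). Mast or basophil-like cells averaged 0.411 ± 0.249% and 1.99 ± 1.08% (exact permutation p = 0.0571).

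The shares of macrophages, monocytes and neutrophils overlapped between the groups. Macrophages were 18.2, 40.8, 17.3 and 5.33% of cells under anti-PD-1 and 10.9, 8.39, 23.9 and 31.4% under isotype. Their means were 29.5% against 9.65% in pool E5 and 11.3% against 27.7% in pool E6, opposite in order. Monocytes averaged 35.2 ± 10.3% and 23.9 ± 12.9% (exact permutation p = 0.229), and in pool E5 the order of the means was reversed, 28.1% against 33.1%. Neutrophils were 9.59, 5.14, 8.98 and 35.6% against 7.05, 13.3, 6.79 and 3.76%, where anti-PD-1 mouse 4 alone held more than all isotype mice. The share of NK cells averaged 4.48% against 7.0% (exact permutation p = 0.171) and that of regulatory T cells, which restrain other T cells, 3.59 ± 2.56% against 4.70 ± 0.975%; both groups overlapped. No class passed the test of a different response in the 2 genotypes, the smallest exact permutation p being 0.170 for mast or basophil-like cells (adjusted 0.847). That test relabelled the treatment within each genotype, so its p assumes no effect of anti-PD-1 in either genotype rather than an equal effect in both.

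**Figure D2:**
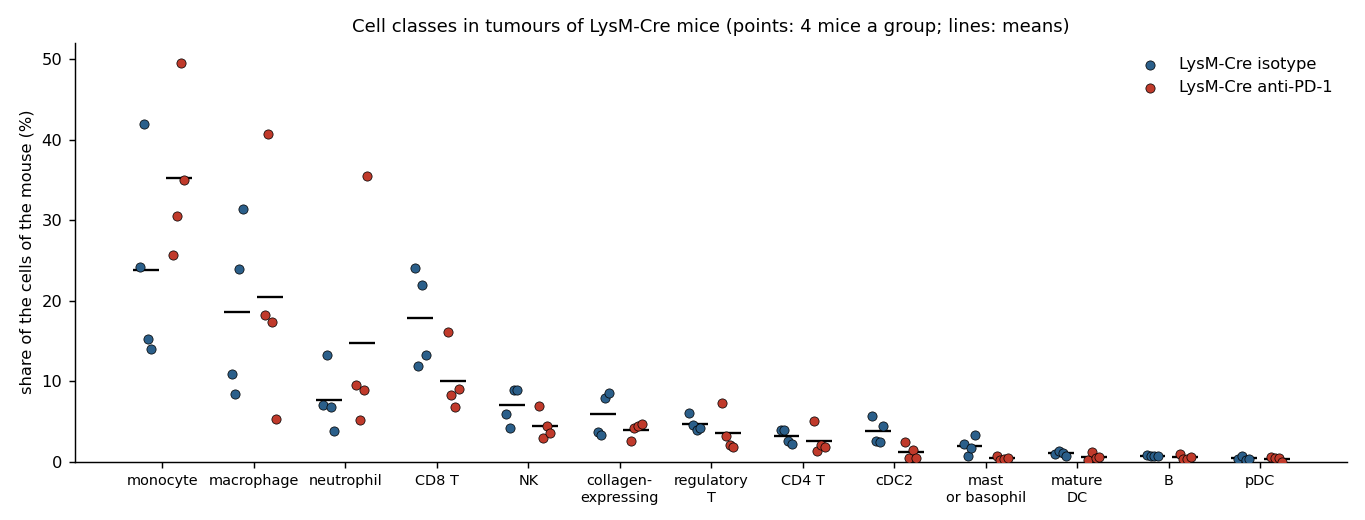
Each point is the percent of 1 LysM-Cre mouse's assigned cells in a class, for 4 anti-PD-1 and 4 isotype mice, with the group mean. The cDC2-like share is 0.498 to 2.44% under anti-PD-1 and 2.51 to 5.72% under isotype, while the other classes overlap.

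CD8 T cells, the cytotoxic T cells that PD-1 restrains, held the only genes that passed the test among the 6 classes with enough mice. Their counts were summed per mouse (43 to 343 cells and 363899 to 2966296 gene counts in LysM-Cre mice) and fitted by the edgeR quasi-likelihood test with the pool as covariate. Of 8061 genes, 3 passed a Benjamini-Hochberg adjusted p of 0.05 (0.0372%), all lower under anti-PD-1, and DESeq2 called 5. At an unadjusted p below 0.05 there were 630 genes (7.82%), and 3.99% of genes had groups that did not overlap.

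Rgs10, a regulator of G protein signalling, and Ifi30, a lysosomal thiol reductase of antigen processing, fell in CD8 T cells under anti-PD-1. After a fitted change, ± gives its standard error rather than an SD over mice. Rgs10 (chromosome 7, 128373621 to 128419506 on GRCm38, the assembly also called mm10) was 40.7, 55.0, 74.0 and 59.9 CPM under anti-PD-1 and 108, 86.6, 98.6 and 120 CPM under isotype, with no overlap (fitted change -0.89 ± 0.16; edgeR adjusted p = 0.0206; -1.02 and -0.70 in pools E5 and E6). Ifi30 (chromosome 8, 70762773 to 70766663) was 48.5, 27.5, 60.8 and 51.3 CPM against 88.5, 98.8, 75.4 and 102 CPM, again with every anti-PD-1 mouse below every isotype mouse (-0.96 ± 0.17; edgeR adjusted p = 0.0206; -1.33 and -0.64 in pools E5 and E6). The response of Ifi30 differed between genotypes by -1.37 (adjusted p = 0.0179), with a fitted change of 0.41 in floxed mice. In CD8 T cells 2 genes passed this test (0.0248%), Ifi30 among them. The difference for Ifi30 missed the threshold under 4 of 7 alternatives that changed the processing, among them -0.66 with HTODemux, another hashtag caller, and -0.62 when the leading hashtag needed 90% of the hashtag counts. It was lost in 2 of 8 fits without 1 LysM-Cre mouse and 3 of 7 without 1 floxed mouse. Without isotype mouse 4 the adjusted p of the change in LysM-Cre mice was 0.0848 for both genes, with changes of -0.83 and -0.95. Leaving out each LysM-Cre mouse in turn ended the call of Rgs10 in 5 of 8 fits and that of Ifi30 in 6 of 8. Without the pool term the adjusted test called neither, with changes of -0.89 for Rgs10 and -0.95 for Ifi30. It also missed both without the 5% of cells with the highest doublet scores (-0.82 and -0.50), and missed Ifi30 when HTODemux assigned the cells (-0.64).

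Markers of macrophages inside the CD8 T cells were also lower in most anti-PD-1 mice. In CD8 T cells 7 macrophage markers, none of them at 0 in all LysM-Cre mice, summed to 833, 635, 975 and 1336 CPM under anti-PD-1 and to 1180, 1474, 2358 and 2172 CPM under isotype, against 30507 to 44220 CPM in macrophages themselves. Genes of MHC class II presentation, which antigen-presenting cells express, summed to 664, 563, 563 and 622 CPM and to 692, 1255, 1067 and 1426 CPM. Only anti-PD-1 mouse 4 overlapped the isotype mice in the first sum, and no mouse did in the second. The part of macrophage RNA in the calls was not tested.

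On the surface of CD8 T cells, 2 of 85 proteins passed the test (2.35%), and both rose. TIM3, an inhibitory receptor of chronically stimulated T cells, was 2146, 3983, 3331 and 4066 antibody CPM under anti-PD-1 and 1160, 1864, 2042 and 1019 under isotype. CD226, an activating receptor that shares ligands with the checkpoint TIGIT, was 8553, 10893, 9815 and 7135 antibody CPM against 5278, 6257, 6111 and 6107. Neither protein had an anti-PD-1 mouse within the isotype range, where 8.24% of the proteins had groups without overlap. The fitted change was 1.29 ± 0.28 for TIM3 (0.99 and 1.35 in pools E5 and E6) and 0.75 ± 0.17 for CD226 (0.75 and 0.45), each with an edgeR adjusted p of 0.0257. In floxed mice TIM3 had a fitted change of 0.65 and CD226 of 0.14, and the response differed between genotypes for none of the 85 proteins after adjustment (0.0%). Without isotype mouse 4 both were at an adjusted p of 0.148, with changes of 1.1 and 0.72, and CD226 missed the threshold under all 7 alternatives that changed the processing and TIM3 under 5 of 7. Leaving out each LysM-Cre mouse in turn ended the call of TIM3 in 6 of 8 fits and that of CD226 in 5 of 8.

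The messenger RNA of TIM3, Havcr2, was 48.5, 104, 76.6 and 138 CPM under anti-PD-1 and 21.0, 58.3, 60.5 and 23.9 CPM under isotype, where anti-PD-1 mouse 1 lay inside the isotype range (fitted change 1.09, edgeR adjusted p = 0.56). That of CD226, the gene Cd226, had a fitted change of 0.40 (adjusted p = 0.51). ICOS, read as CD278 and named after its values were seen, was 741, 624, 606 and 754 antibody CPM against 203, 480, 318 and 206, without overlap, but missed the adjusted threshold (1.31, edgeR adjusted p = 0.0688). PD-1 itself, read as CD279, was 2192, 1752, 1741 and 3472 antibody CPM under anti-PD-1 and 1237, 2175, 2599 and 1638 under isotype, and the groups overlapped (0.38, edgeR adjusted p = 0.417, and 0.22 without isotype mouse 4). Its gene Pdcd1 was 106, 151, 198 and 238 CPM against 47.3, 118, 177 and 49.1 CPM, also with overlap. The anti-PD-1 mice alone had been given an antibody against PD-1. Whether it hid PD-1 from the CD279 tag antibody was not tested, so the CD279 values may not give the amount of PD-1.

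**Figure D3:**
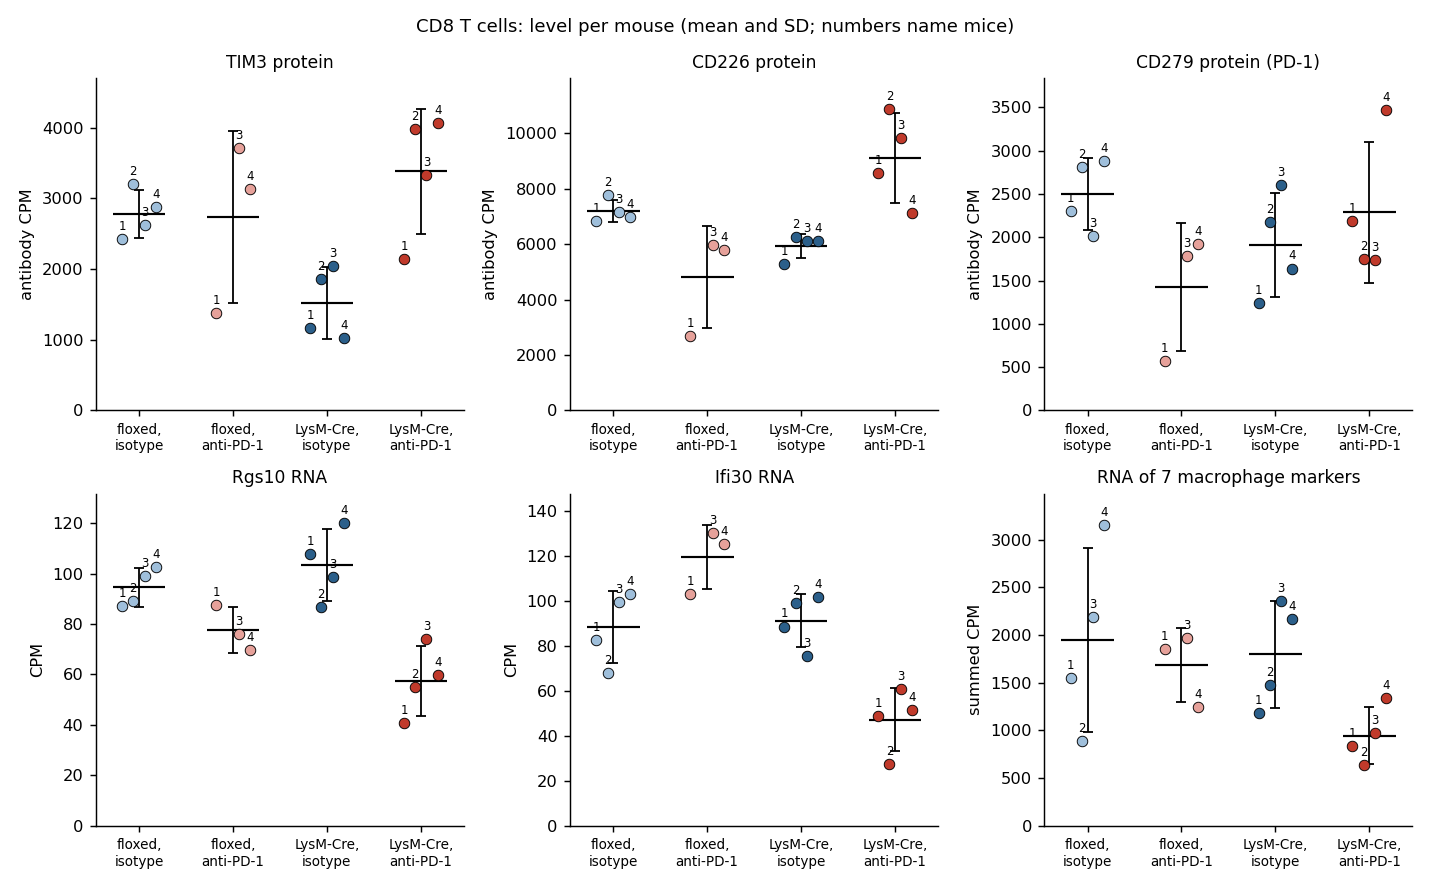
Each numbered point is the level of 1 mouse in its CD8 T cells, in antibody CPM for TIM3, CD226 and CD279 and in CPM for Rgs10, Ifi30 and the sum of 7 macrophage markers, for the 4 combinations of genotype and antibody with the mean and SD. Among LysM-Cre mice, TIM3, CD226, Rgs10 and Ifi30 separate the groups, CD279 does not, and the macrophage markers overlap through anti-PD-1 mouse 4.

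The gene programmes of CD8 T cells were described by lists, none of whose members passed the adjusted test, beside a median log2 change of 0.00523 over all 8061 genes, 50.8% of which had a positive one. Of 12 exhaustion and checkpoint receptor genes tested, 11 had a positive fitted change (median 0.37, from 0.22 without anti-PD-1 mouse 2 to 0.58 without isotype mouse 3), among them Lag3 (0.73, or 0.43 without isotype mouse 4) and Cd160 (0.39). Of 14 cytotoxic genes, 11 had a positive change (median 0.27, from 0.16 without isotype mouse 4 to 0.41 without anti-PD-1 mouse 1), and 4 were higher at an unadjusted p below 0.05 (3.81% of all genes), including Klrd1, a subunit of lectin-like NK receptors (874 ± 123 against 690 ± 69.1 CPM, without overlap). Ifng, the gene for interferon gamma, was 183, 1003, 156 and 553 CPM against 61.3, 191, 238 and 159 CPM, and anti-PD-1 mice 1 and 3 lay among the isotype mice (fitted change 1.51, edgeR adjusted p = 0.624).

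Of 29 interferon response genes, by contrast, 23 had a negative change in CD8 T cells (median -0.50), 8 of them at an unadjusted p below 0.05 (4.01% of all genes were lower so), such as Ifit2 (67.3, 44.0, 44.9 and 35.6 against 91.1, 111, 61.2 and 83.3 CPM). The floxed mice had a median of -0.45 over the same genes. Genes of naive and memory T cells had a negative change in 9 of 11 (median -0.22, from -0.48 without anti-PD-1 mouse 1 to -0.051 without isotype mouse 1, and -0.12 without isotype mouse 4), with Bcl2, a survival factor, at 326, 420, 351 and 309 against 472, 356, 549 and 446 CPM. The cell cycle list had 16 of 19 positive changes (median 0.26, floxed 0.22, and 0.021 without anti-PD-1 mouse 3).

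Among genes below the adjusted threshold but without overlap were Galnt3, a glycosyltransferase (26.6, 44.0, 34.4 and 39.9 against 9.64, 20.6, 14.2 and 8.89 CPM; edgeR adjusted p = 0.092), and Crem, a cyclic AMP responsive regulator (36.0 to 47.6 against 16.8 to 32.4 CPM). On the lower side was Irf2bp2, a transcriptional corepressor (64.2, 57.7, 63.4 and 88.4 against 117, 92.7, 102 and 158 CPM; adjusted p = 0.092). Ccl2, a monocyte-attracting chemokine, was 6.26, 13.7, 5.29 and 14.3 against 25.4, 43.8, 35.4 and 24.3 CPM. Genes induced by tissue dissociation had a negative change in 13 of 15 (median -0.36, floxed 0.20), with the heat shock cofactor Dnajb1 at 28.2, 49.5, 23.8 and 47.0 against 86.8, 46.2, 83.1 and 72.5 CPM.

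NK cells, innate cytotoxic lymphocytes, were fitted in 7 LysM-Cre mice, since anti-PD-1 mouse 2 had under 20 of them. The edgeR test called 0 of 6097 genes (0.0%), with 396 at an unadjusted p below 0.05 (6.49%), and DESeq2 called 1. Gzma, which encodes granzyme A, was 2175, 7103 and 3686 CPM under anti-PD-1 and 1617, 3093, 1600 and 1106 CPM under isotype, where anti-PD-1 mouse 1 lay inside the isotype range (fitted change 1.09, adjusted p = 0.724). All 7 naive and memory genes tested had a positive change (median 0.62, against 0.00667 over all genes, of which 51.0% were positive, and 0.36 without anti-PD-1 mouse 4), including the transcription factor genes Tcf7 (160, 108 and 104 against 106, 87.2, 54.9 and 78.3 CPM) and Klf2.

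Genes without overlap in NK cells made up 7.92% of those tested. Satb1, a chromatin organizer, was 198, 341 and 221 CPM under anti-PD-1 and 161, 125, 144 and 151 CPM under isotype. Ifi30 was 37.4, 56.78 and 52.1 against 56.79, 85.1, 120 and 90.9 CPM, so that its groups met but did not overlap (-0.99, edgeR adjusted p = 0.492). Tox, a transcription factor of exhausted T cells and NK development, was 8.01, 17.0 and 16.3 against 28.4, 18, 28.6 and 32.6 CPM. None of 79 surface proteins passed the edgeR test (0.0%), and 7 were at an unadjusted p below 0.05 (8.86%). The myeloid proteins CD64 and CD88 on NK cells were 803 to 934 against 1282 to 2616 and 1575 to 3337 against 3357 to 7696 antibody CPM.

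In monocytes, the class with most cells, edgeR called 0 of 9943 genes (0.0%), with 486 at an unadjusted p below 0.05 (4.89%) and 3.0% without overlap, and DESeq2 called 3. Of 15 inflammatory genes tested, 14 had a positive fitted change (median 0.44, against -0.00596 over all genes, of which 48.6% were positive), and the floxed mice had a median of 0.59. The median was 0.15 without anti-PD-1 mouse 4 and 0.73 without isotype mouse 2. Il1b, the gene for interleukin 1 beta, was 1345, 1269, 1483 and 1983 CPM under anti-PD-1 and 728, 944, 1119 and 799 CPM under isotype, without overlap (0.75, edgeR adjusted p = 0.975). Clec4e, a receptor for mycobacterial and damage ligands, was 165, 215, 234 and 267 against 136, 190, 85.4 and 138 CPM, with overlap through anti-PD-1 mouse 1. Anti-PD-1 mouse 4, highest for Il1b and Clec4e, also held 6733 CPM of 8 neutrophil markers in its monocytes, against 343 to 2312 CPM in the other LysM-Cre mice, and the part of this in the list was not tested.

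Among monocyte genes chosen because their groups did not overlap, 3 of the higher ones were Rab20, Slc11a1 and Prdm1. Rab20, a GTPase of phagosomes, was 46.2, 31.6, 41.7 and 61.6 against 22.5, 25.7, 28.1 and 26.1 CPM (fitted change 0.81, edgeR adjusted p = 0.357). Slc11a1, a metal transporter of phagosomes, was 104 to 127 against 69.8 to 94.7 CPM, and Prdm1, a transcriptional repressor, 42.5 to 51.1 against 21.8 to 36.8 CPM. In floxed mice these 3 had fitted changes of 0.65, 0.50 and 0.88. Lower without overlap were Cdk6, a cell cycle kinase (20.9 to 26.4 against 27.9 to 51.5 CPM), and Mef2c, a transcription factor (81.2 to 135 against 138 to 197 CPM).

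Other programmes of monocytes pointed in either direction. Cell cycle genes had a negative change in 14 of 16 (median -0.54, floxed 0.08, -0.37 without isotype mouse 4), with Mcm6, a helicase subunit, at 6.8 to 8.11 against 10.1 to 18.5 CPM. Chemokine genes and receptors had a negative change in 9 of 12 (median -0.47), with Ccr2, the receptor that brings monocytes into tissue, at 969, 760, 807 and 747 against 1261, 866, 737 and 1401 CPM. Dissociation genes had a negative change in 12 of 15 (median -0.27, floxed 0.15), with 8 lower at an unadjusted p below 0.05 (2.68% of all genes), among them Fos at 1254, 1197, 1570 and 2558 against 2047, 1493, 2494 and 3548 CPM. All 14 MHC class I genes had a positive change (median 0.16), but the median was 0.01 without isotype mouse 4.

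Of 87 surface proteins on monocytes, 1 passed the test (1.15%), and 6.9% had groups without overlap. CD8a, the T cell coreceptor, fell, from 594, 542, 829 and 955 antibody CPM under isotype to 338, 321, 283 and 354 under anti-PD-1, with no overlap (-1.03 ± 0.20; edgeR adjusted p = 0.00861; -0.78 and -1.49 in pools E5 and E6). The fitted change in floxed mice was -1.01, and the difference between genotypes was -0.02, which missed the edgeR threshold. RNA of 12 T and NK cell markers in monocytes, none of them at 0 in all LysM-Cre mice, summed to 38.0, 16.0, 23.9 and 19.6 CPM under anti-PD-1 and 43.3 to 51.1 CPM under isotype, and its part in the CD8a result was not tested. Without the cells of highest doublet score CD8a was at -0.45 (adjusted p = 0.356), with HTODemux at -0.46 (adjusted p = 0.684), and without isotype mouse 4 at -0.88 (adjusted p = 0.0521). CD274, the ligand of PD-1 also called PD-L1, was 16168, 23291, 20959 and 16040 antibody CPM under anti-PD-1 and 8616, 11432, 22514 and 5857 under isotype, where isotype mouse 3 lay among the anti-PD-1 mice (0.79, edgeR adjusted p = 0.371).

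Macrophages gave 0 calls among 9984 genes by edgeR (0.0%), with 472 at an unadjusted p below 0.05 (4.73%) and 3.1% without overlap, and DESeq2 called 0. Fabp5, a fatty acid binding protein of lipid-laden macrophages, was 702, 881, 927 and 939 CPM under anti-PD-1 and 361, 317, 534 and 317 CPM under isotype, so that all anti-PD-1 mice lay above all isotype mice (1.19, edgeR adjusted p = 0.808; 1.21 and 1.18 in pools E5 and E6). The fitted change of Fabp5 in floxed mice was 0.96. Anpep, an aminopeptidase of myeloid cells (32.5, 45.7, 33.7 and 48.6 against 18.5, 21.1, 21.7 and 14.5 CPM), and Nr1h3, the oxysterol receptor LXR alpha (29.4, 51.0, 22.6 and 22.2 against 6.49, 11.3, 19.7 and 12.6 CPM), were also without overlap. Of the other genes chosen because their groups did not overlap, Tlr7, a receptor for single-stranded RNA, was lower (20.4 to 33.7 against 43.9 to 61.8 CPM). Macrophages joined 4 clusters. That with C1qc as its top gene held 4.12 to 53.8% of macrophages under anti-PD-1 and 1.45 to 63.8% under isotype. The part of this mix in the gene values was not tested.

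Hypoxia and glycolysis genes had a positive change in 17 of 20 in macrophages (median 0.22, against 0.000726 over all genes, of which 50.2% were positive), with the glycolytic enzyme Pkm at 711, 791, 716 and 815 against 619, 639, 592 and 540 CPM. The median was 0.04 without isotype mouse 4. Interferon response genes had a negative change in 20 of 29 (median -0.20, floxed -0.89), but the median ran from -0.46 without isotype mouse 4 to 0.27 without isotype mouse 2. MHC class II genes had a positive change in 7 of 10 (median 0.20, but -0.08 without isotype mouse 4 or without anti-PD-1 mouse 4). Inflammatory genes had a negative change in 11 of 13 (median -0.13), with a median of -0.38 without isotype mouse 4, -0.42 without anti-PD-1 mouse 4 and 0.12 without isotype mouse 2. Ccl2 was 198, 137, 270 and 331 CPM under anti-PD-1 and 538, 547, 160 and 550 CPM under isotype, where isotype mouse 3 alone lay among the anti-PD-1 mice. The difference of its mean log2(CPM + 1) was -1.71 in pool E5 and 0.01 in pool E6.

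Among surface proteins of macrophages 0 of 87 passed (0.0%), with 16 at an unadjusted p below 0.05 (18.4%), 12 of them lower (13.8%), and 12.6% without overlap. CX3CR1, the fractalkine receptor of monocytes and macrophages, was 7483, 6007, 5032 and 5211 antibody CPM under anti-PD-1 and 11903, 7928, 9122 and 17958 under isotype. CD68, a lysosomal glycoprotein, was 2036, 1446, 1423 and 1421 against 2676, 2270, 2712 and 4061, and CD115, the receptor for macrophage colony-stimulating factor, 328 to 423 against 526 to 1856. None of the 3 overlapped, and the edgeR adjusted p was 0.0649, 0.0649 and 0.108. Isotype mouse 4 held the highest value of each, and without it the fitted changes were -0.61, -0.64 and -0.56 with edgeR adjusted p of 0.226, 0.191 and 0.281. Isotype mice 2 and 4 also held 3198 and 4403 CPM of neutrophil markers in macrophages, against 145 to 704 CPM in the other 6, whose part in these values was not tested.

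Neutrophils, with 31 to 381 cells a mouse, showed 454 of 2984 genes at an unadjusted p below 0.05 (15.2%), but edgeR called 0 (0.0%) and DESeq2 called 14. Inflammatory genes had a positive change in all 13 tested (median 0.97, against -0.0112 over all genes, of which 49.0% were positive), 8 of them at an unadjusted p below 0.05 (6.13% of all genes were higher so). Il1b was 13743, 15021, 12967 and 13213 CPM under anti-PD-1 and 8173, 8309, 8089 and 5383 CPM under isotype, without overlap (0.95, edgeR adjusted p = 0.181). Ptgs2, the inducible prostaglandin synthase, was 1422, 2862, 1774 and 1012 against 1070, 909, 735 and 839 CPM, where anti-PD-1 mouse 4 lay below isotype mouse 1. In floxed mice the median of the list was 0.48, and no member differed between genotypes at an unadjusted p below 0.05.

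Interferon response genes had the opposite sign in neutrophils, with a negative change in 24 of 27 (median -0.97, -1.23 without isotype mouse 4 and -0.60 without anti-PD-1 mouse 4 or isotype mouse 2), again 8 at an unadjusted p below 0.05 (9.08% of all genes were lower so). Ifit3 was 56.1, 28.5, 75.0 and 21.6 CPM under anti-PD-1 and 392, 343, 193 and 95.5 CPM under isotype, and Irf7, the regulator of type I interferon genes, 74.9, 114, 113 and 72.8 against 247, 333, 148 and 206 CPM. Both were without overlap, at edgeR adjusted p of 0.206 and 0.154. In floxed mice the median of these 27 genes was 0.09, and 3 of them differed between genotypes at an unadjusted p below 0.05 (5.63% of all genes).

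Among neutrophil genes chosen because their groups did not overlap (5.23% of those tested) were Cpeb4 and Pld4. Cpeb4, a regulator of polyadenylation, was 312, 171, 139 and 90.3 against 57.0, 72.5, 32.9 and 35.2 CPM (fitted change 1.82, edgeR adjusted p = 0.076). Pld4, an endolysosomal nuclease, was 62.4, 14.2, 21.4 and 32.4 against 88.6, 110, 86.2 and 186 CPM (-1.76, edgeR adjusted p = 0.154). Il1rn, the interleukin 1 receptor antagonist, was 316 to 541 against 164 to 281 CPM, and Fcgr1, the high-affinity Fc receptor, 14.2 to 69.7 against 73.9 to 229 CPM. Macrophage markers in neutrophils summed to 1922 to 7585 CPM under anti-PD-1 and 3729 to 11325 CPM under isotype, and neutrophil markers to 100180 to 212180 and 67442 to 163470 CPM. Neutrophils joined 2 clusters. That with Lcn2 among its top genes held 45.1, 45.2, 35.1 and 72.3% of them under anti-PD-1 and 20.8, 56.4, 41.5 and 21.6% under isotype. The part of this mix in the gene values was not tested. Of 86 surface proteins edgeR called 0 (0.0%), with 7 at an unadjusted p below 0.05 (8.14%), among them CD14, a coreceptor for bacterial lipopolysaccharide (16618 to 22055 against 10810 to 15647 antibody CPM).

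**Figure D4:**
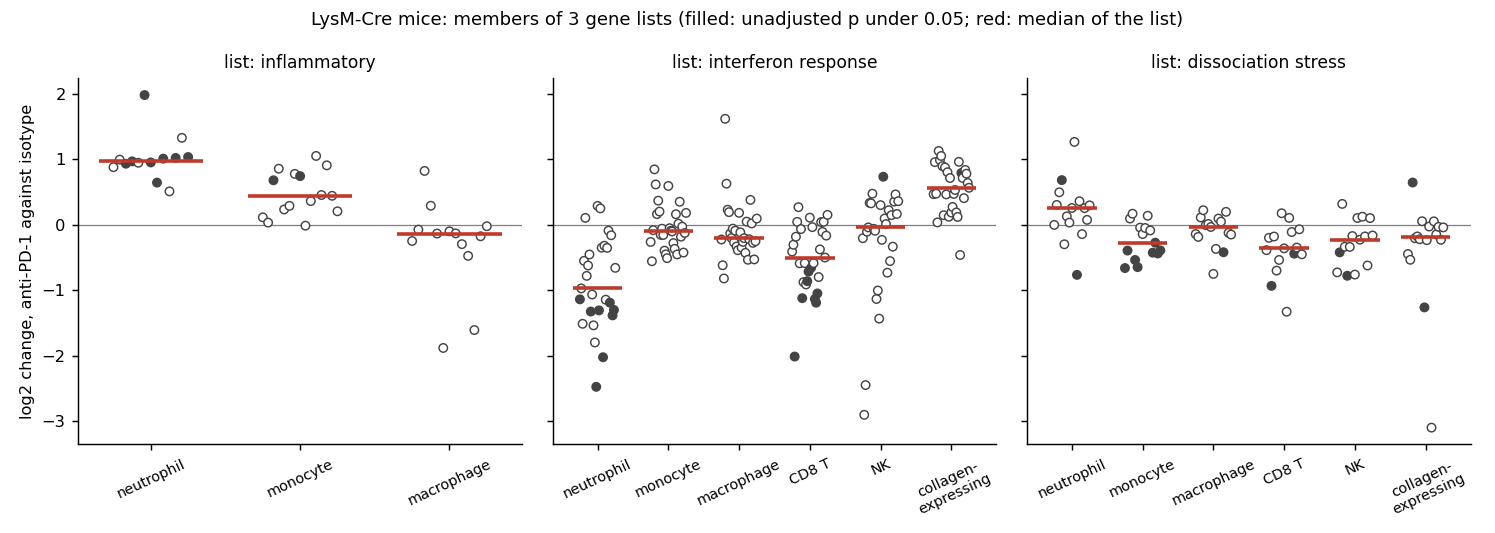
Each point is the fitted log2 change (anti-PD-1 against isotype, LysM-Cre mice) of 1 member of the inflammatory, interferon response or dissociation stress list in a class, filled where the unadjusted p was below 0.05, with the median as a red bar. Inflammatory genes in neutrophils centre on 0.97 and interferon response genes there on -0.97, and no point passes the adjusted test.

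Glucocorticoid-induced genes are those that the receptor itself activates. Positive changes were found in 10 of 19 of them in macrophages (median 0.04, or -0.06 without isotype mouse 4), where 50.2% of all genes were positive. They were found in 9 of 18 in monocytes (median -0.01, or 0.01 without isotype mouse 4, against 48.6% of all genes). At an unadjusted edgeR p below 0.05, 3 of these 18 were lower and 1 was higher. Of all genes in monocytes, 4.89% were so in either direction and 2.68% were lower. In neutrophils 10 of 13 were positive (median 0.26, or 0.15 without isotype mouse 4, against 49.0% of all genes). Of these, 2 were at an unadjusted edgeR p below 0.05, where 15.2% of all genes in the class were in either direction and 6.13% were higher. Fkbp5, a cochaperone of the receptor and one of its best known targets, was 8.73, 18.9, 14.5 and 64.1 CPM under anti-PD-1 and 13.2, 23.3, 79.2 and 27.3 CPM under isotype in monocytes. Tsc22d3, which encodes GILZ, was 98.5, 111, 112 and 184 against 155, 115, 185 and 179 CPM there. Both overlapped, and neither passed the test in any class. Nr3c1 in monocytes had a fitted change of -0.53 (edgeR adjusted p = 0.91), which was -0.40 without isotype mouse 4, and in macrophages of -0.94 (adjusted p = 0.808), which was -0.62 without that mouse.

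The collagen-expressing cells were fitted in 7 LysM-Cre mice, since anti-PD-1 mouse 1 had under 20. Neither edgeR nor DESeq2 called any of 11019 genes (0.0%), and 492 were at an unadjusted p below 0.05 (4.47%). Ltbp2, a matrix protein that binds fibrillin, was 39.8, 23.8 and 44.5 CPM under anti-PD-1 and 15.6, 16.5, 10.9 and 11.8 CPM under isotype. Cxcl12, a chemokine of stromal cells, was 49.3, 105 and 79.7 against 143, 146, 158 and 150 CPM. Both were chosen among the genes whose groups did not overlap, 6.01% of those tested.

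Interferon response genes had a positive change in 28 of 29 in these cells (median 0.57), where 49.8% of all genes were positive. The median was 0.23 without isotype mouse 4, 0.24 without anti-PD-1 mouse 3 and 1.08 without anti-PD-1 mouse 2. The genotypes were not compared in this class, because only 2 floxed anti-PD-1 mice had 20 such cells or more. Of 83 surface proteins 0 passed (0.0%), with 9 at an unadjusted p below 0.05 (10.8%) and 12.0% without overlap. CD5, a T cell protein, was 4209, 3619 and 836 against 34779, 14861, 23742 and 23098 antibody CPM (edgeR adjusted p = 0.0761). In this class anti-PD-1 mouse 4 held 5255 CPM of neutrophil markers and anti-PD-1 mouse 3 6827 CPM of macrophage markers, where the others held 43.0 to 1594 and 1553 to 4805 CPM, and their part in these values was not tested.

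**Figure D5:**
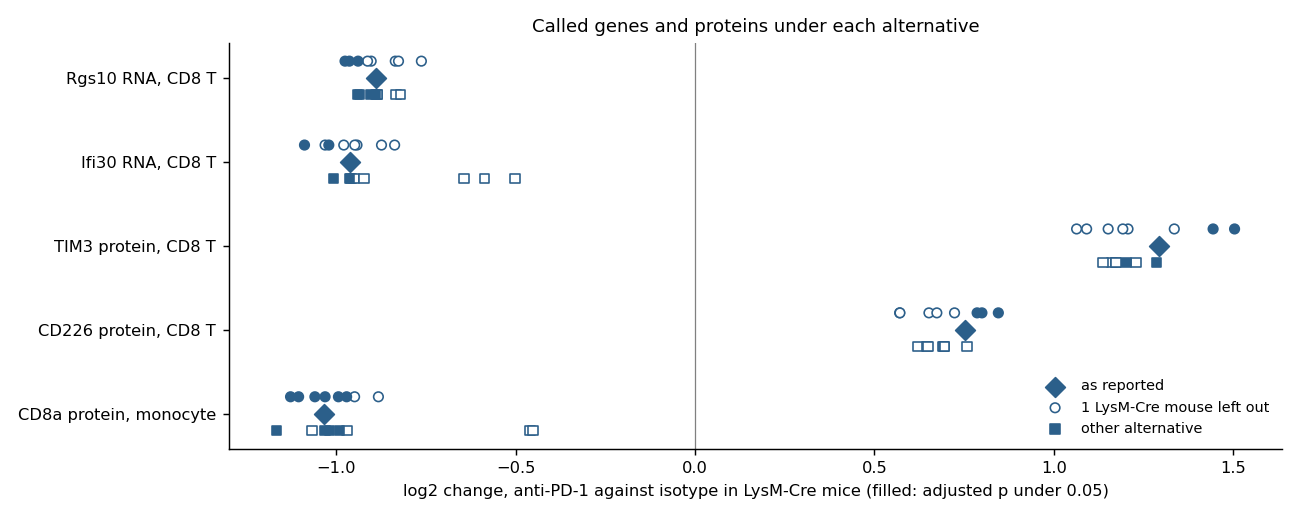
For each of 5 calls the log2 change (anti-PD-1 against isotype, LysM-Cre mice) is shown as reported (diamond), without each LysM-Cre mouse in turn (circles) and under the other alternatives (squares), filled where the adjusted p was below 0.05. Every value of the 5 keeps its sign, and each of the 5 has open symbols.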

How the data were processed

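Single-cell libraries of messenger RNA, hashtags and 88 surface antibodies (89 per the labels' protocols) from 2 pools of 8 mice were used. The authors deposited raw counts, 1 per distinct molecule of a feature in a barcode. Cell Ranger 6.1.2 wrote the matrices, per the file headers. Cell Ranger 3.0.1 and mm10 are named in the submitters' processing notes. No source used here gives further settings of the alignment.

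Hashtags 8 and 9, both of floxed isotype mice, have the same sequence in the submitters' antibody table but separate counts in the matrices, and were kept as separate mice. The rule on hashtags and quality assigned 9889 of 13924 E5 barcodes and 10518 of 14522 E6 barcodes. Clustering used the Leiden method at resolution 1.0 on 15 neighbours in 30 components of 2000 variable genes (scanpy 1.11.5, leidenalg 0.10.2). Of 29 clusters, 26 were named from fixed markers, and 3 with 563 cells (2.76%) stayed unnamed. Scrublet's automatic threshold marked 0 and 2 cells, so no doublet caller was used beyond the hashtags.

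Summed counts of a mouse in a class needed 20 cells or more, and a class 3 mice or more in both LysM-Cre conditions, which left 6 classes. Genotypes were compared in the 5 of them that also had 3 mice or more in both floxed conditions. The test was the quasi-likelihood F test of edgeR 4.0.16 in R 4.3.3, after filterByExpr and TMM, with the pool as covariate and all 4 conditions in 1 model, with Benjamini-Hochberg adjustment over all features of a class and a threshold of 0.05. DESeq2 1.42.0 and HTODemux of Seurat 5.3.0 served as alternatives. Antibodies needed a total of at least 100. CPM are scaled to the summed counts of the mouse and class, without TMM. Fitted changes are log2, anti-PD-1 against isotype, and values within a pool are differences of mean log2(CPM + 1). The standard error of a fitted change is its size divided by the square root of its F statistic. Of 152 genes and proteins compared within pools, 146 had the same sign in both. Many of them were chosen for a small p or for groups that did not overlap in these same mice. Groups that do not overlap must have the same sign in both pools, so this count is no separate test. The test of shares was an exact permutation of mice, two-sided.

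Genes were named by rule: those past the adjusted threshold at 10 CPM or more, up to 5 per direction without overlap at 20 CPM or more, up to 4 members of each list described in a class, and 6 genes fixed by name. Some of the 24 lists were only summed per mouse and named no genes. Others, such as Cd226, the gene of a called protein, and Lyz2, Xist and Ptprc, which check mice and classes, were named outside the rule. The members and lists were chosen with earlier results of these data known. On simulated counts the CD8 T fit recovered 70% of genes changed by 1 log2 unit and 94% of those changed by 2, over 8061 genes, the macrophage fit 74% and 95% over 9984, and the monocyte fit 85% and 97% over 9943. The changed genes, 100 of each size in a class, all had a mean of at least 10 CPM. False calls numbered 11 in CD8 T cells, 7 in macrophages and 5 in monocytes. The simulation held no effect of pool and no mouse that stood apart, so recovery in the real data may be lower. Positions are from RefSeq on GRCm38. Of the genes called in CD8 T cells, 1 is not reported here. Reads that genes share with near-identical copies were not resolved.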

Additional observations from a re-analysis of the deposited data

Results flagged for a closer look

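In 310 sets of 4 mice, the value of 1 mouse stood far from the other 3 in 10, where chance alone gives about 1 in 20. In CD8 T cells the CD226 protein of 1 isotype mouse was lowest at 5278 antibody CPM (the others 6107 to 6257), and Oasl1 of 1 anti-PD-1 mouse was highest at 10.6 CPM (5.50 to 6.26). In macrophages CD68 protein of 1 anti-PD-1 mouse was highest at 2036 antibody CPM (1421 to 1446), CD115 protein of 1 isotype mouse was highest at 1856 (526 to 665), and Ccl2 of 1 isotype mouse was lowest at 160 CPM (538 to 550). Cxcl9 in monocytes of 1 isotype mouse was highest at 1134 CPM (409 to 499). In neutrophils Il1b of 1 isotype mouse was lowest at 5383 CPM (8089 to 8309), as was Clec4e at 708 CPM (943 to 981). The neutrophil share of anti-PD-1 mouse 4 was highest at 35.6% (5.14 to 9.59), and the pDC-like share of 1 anti-PD-1 mouse was lowest at 0% (0.472 to 0.564).

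The anti-PD-1 change differed between LysM-Cre and floxed mice, by the interaction term of the edgeR model, for Ifi30 in CD8 T cells (-1.37).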

How the results depend on the processing

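Precision was limited by 4 mice a group, by classes of few cells and by 2 mice whose Lyz2, Nr3c1 or Xist levels went against their labels. Removing cells that Scrublet calls doublets was planned but not run, because its automatic threshold marked 0 of 9889 and 2 of 10518 cells. Leaving out the 5% of cells with the highest scores, the barcodes found in both pools, or the monocyte cluster with mixed markers was chosen after seeing the data. Causes of the shifts below were not tested. No paired analysis was possible because the labels number no mice of one condition; the pool stood in the model as a covariate.

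Called genes in CD8 T cells numbered 3, but 5 with DESeq2, 66 without a filter on low counts, 0 without the pool term, 11 in LysM-Cre mice alone, 1 without shared barcodes and 0 without the highest Scrublet scores. With DESeq2, NK cells had 1, monocytes 3 and neutrophils 14, and with LysM-Cre mice alone neutrophils had 4. Without the filter, NK cells, collagen-expressing cells, macrophages, monocytes and neutrophils had 7, 172, 223, 178 and 62. Proteins called in CD8 T cells numbered 2, but 0 with HTODemux, antibody totals, LysM-Cre mice alone, the 90% hashtag rule or without the highest Scrublet scores, and 1 without the pool term or shared barcodes. In monocytes 1 became 2 with antibody totals and 0 with HTODemux, the 90% rule, without the mixed cluster or without the highest Scrublet scores. Collagen-expressing cells had 1 with antibody totals, and neutrophils 1 in LysM-Cre mice alone.

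Genes differing between genotypes in CD8 T cells numbered 2, but 0 with HTODemux, no pool term, the 90% rule or without the highest Scrublet scores, and 23 without the filter. Without the filter NK cells had 1, macrophages 146, monocytes 84 and neutrophils 4. DESeq2 gave 2 in monocytes and 2 in neutrophils, and the 90% rule 1 in monocytes.

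Changes that kept their sign but missed the threshold were these. Without the pool term they were Rgs10 -0.89, Ifi30 -0.95 and CD226 0.76, and between genotypes Ifi30 -1.40. Without the highest Scrublet scores they were Rgs10 -0.82, Ifi30 -0.50, TIM3 1.17, CD226 0.65 and CD8a -0.45, and between genotypes Ifi30 -0.98. With HTODemux they were Ifi30 -0.64, TIM3 1.16, CD226 0.69 and CD8a -0.46, and between genotypes Ifi30 -0.66. Under the 90% rule they were Ifi30 -0.59, TIM3 1.17, CD226 0.65 and CD8a -0.97, and between genotypes Ifi30 -0.62. Without shared barcodes they were Rgs10 -0.83, Ifi30 -0.92 and CD226 0.70. Antibody totals gave TIM3 1.14 and CD226 0.62, LysM-Cre mice alone gave 1.23 and 0.69, and without the mixed cluster CD8a was -1.07. With HTODemux, Insig1 in collagen-expressing cells reversed to 0.20 and the difference in the share of those cells to 0.588 percentage points.

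Leaving out 1 mouse at a time gave 1 to 7 genes in CD8 T cells, 0 to 2 in NK, 0 to 3 in collagen-expressing, 0 to 5 in monocytes and 0 to 7 in neutrophils. Proteins ranged from 0 to 4 in CD8 T and collagen-expressing cells and 0 to 3 in monocytes. Genes differing between genotypes ranged from 0 to 2 in CD8 T cells and 0 to 1 in NK cells and monocytes. Changes ranged from -0.98 to -0.76 for Rgs10, -1.09 to -0.84 for Ifi30, 1.1 to 1.5 for TIM3, 0.57 to 0.85 for CD226 and -1.13 to -0.88 for CD8a. Between genotypes they ranged from -1.48 to -1.26 for Ifi30. The CD274 protein in CD8 T cells ranged from -0.034 to 0.20 and so changed sign, as did the difference in the macrophage share (-5.03 to 6.79 percentage points, with -0.823 and -1.66 between) and the pDC-like share (-0.123 to 0.0790, with 0.0624 between). Of the medians of gene lists, 448 of 451 with other settings and 857 of 861 without 1 mouse moved little. That is, they moved by less than the median standard error of the fitted changes of the list's members, which a change of sign can also do. In macrophages the medians of interferon response (-0.46 to 0.27), inflammatory (-0.42 to 0.12) and MHC class II genes (-0.08 to 0.45) changed sign without 1 mouse. The difference in cell numbers ran from -1247 to -539.8.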
